A study of Homo sapiens with 24 samples.

Results

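The genes described here are 10 components of Toll-like receptor signalling in B cells: the surface receptors CD180, TLR1, TLR6 and TLR10, the CD180 partner LY86, the endosomal receptor TLR9, its transporter UNC93B1, the adaptor MYD88, and the kinases IRAK4 and IRAK2. They were taken from a list that was chosen with earlier results of these data known. A super-enhancer was assigned to a gene when it overlapped the GENCODE version 44 gene body extended by 50 kb on each side (hg38). By this rule 6 of the 10 genes had a super-enhancer, beside 30.7% of all protein-coding genes, and these genes had 6 of the 2615 super-enhancers of the table. They were compared with 19970 protein-coding genes (chromosome Y left out).

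The table came from OCI-Ly7, an established line of diffuse large B-cell lymphoma (germinal center type), in which H3K27ac, H3K4me1 and H3K4me3 were profiled by CUT&RUN (antibody-guided nuclease cleavage, followed by sequencing of the freed fragments). The 24 samples formed 12 groups of 2, from 3 marks in 4 genotypes: isogenic clones without an edit (WT), with homozygous CREBBP R1446C, which inactivates the histone acetyltransferase domain (C), with homozygous KMT2D knockout (K), and with both (CK). The cell lines were grown from single cells, so each genotype is represented by selected clones. The table holds 1 column, the H3K27ac signal of the WT libraries combined, so the other 22 samples were not analysed here. The values therefore carry no error between replicates, and no difference was tested.

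Toll-like receptors recognise microbial lipids, proteins and nucleic acids. Most of them signal through the adaptor MYD88, which assembles IRAK4 with a second IRAK kinase and leads to NF-kB activation. TLR1 and TLR6 pair with TLR2 at the cell surface, TLR9 detects unmethylated CpG DNA in endosomes, and UNC93B1 carries the nucleic acid receptors there. CD180 resembles a Toll-like receptor but lacks the signalling domain, and it reaches the B-cell surface together with LY86. H3K27ac is found at enhancers and promoters in use. Super-enhancers are groups of neighbouring enhancer peaks whose joint signal exceeds a cutoff, here set by the ROSE program, and signal is given on the relative scale of that program. Genes and regions were paired by distance alone.

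The ends of a region were read as windows of 401 bp, because the summed constituent length was a multiple of 401 in 2609 of 2615 regions. The table gives no positions of single constituents, so this reading is an assumption. The middle 201 bp of those end windows, which give the most exact positions the table allows, are shown for the regions of LY86, the TLR10 cluster, TLR9 and UNC93B1 (hg38, plus strand). They were chosen as the windows with a motif match, plus the window on the side of the gene start for LY86. Capitals mark matches on either strand to NF-kB (GGGANNTTC), octamer (ATGCAAAT), PU.1 (GAGGAAGT), AP-1 (TGANTCA) or IRF (GAAANNGAA), with N for any base.

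LY86 region, lower end, chr6:6595701-6595901: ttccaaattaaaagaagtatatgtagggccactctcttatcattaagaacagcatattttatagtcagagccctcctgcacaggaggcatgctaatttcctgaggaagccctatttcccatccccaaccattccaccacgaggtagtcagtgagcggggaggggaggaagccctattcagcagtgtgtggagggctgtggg
TLR10 cluster region, lower end, chr4:38751834-38752034: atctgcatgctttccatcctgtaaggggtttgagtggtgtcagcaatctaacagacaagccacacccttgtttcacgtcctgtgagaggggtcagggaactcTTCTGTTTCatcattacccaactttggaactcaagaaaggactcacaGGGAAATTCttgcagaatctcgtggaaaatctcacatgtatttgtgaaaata
TLR9 region, upper end, chr3:52283417-52283617: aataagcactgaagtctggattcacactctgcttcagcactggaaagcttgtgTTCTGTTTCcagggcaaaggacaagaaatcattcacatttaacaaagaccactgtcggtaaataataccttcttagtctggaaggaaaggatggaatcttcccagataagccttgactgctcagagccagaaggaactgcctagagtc
UNC93B1 region, upper end, chr11:68026697-68026897: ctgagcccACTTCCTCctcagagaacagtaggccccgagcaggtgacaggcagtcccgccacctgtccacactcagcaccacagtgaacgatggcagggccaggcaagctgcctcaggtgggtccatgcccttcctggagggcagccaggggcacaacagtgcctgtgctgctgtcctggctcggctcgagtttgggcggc
UNC93B1 second region over CHKA, lower end, chr11:68051458-68051658: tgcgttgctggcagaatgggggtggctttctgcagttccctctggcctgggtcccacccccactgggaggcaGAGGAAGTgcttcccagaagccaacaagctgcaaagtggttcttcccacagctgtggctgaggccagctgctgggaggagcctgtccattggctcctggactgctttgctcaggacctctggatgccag

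Of the 12 end windows of the 6 regions, 4 held a match and 1, at the lower end of the TLR9 region, lay in an exon (PPM1M). Of all 5230 end windows in the table, 15.5% held a match to at least 1 of the 5 motifs. The window far from TLR10 held an IRF and an NF-kB match, and those motifs were found in 6.16% and 2.16% of all end windows. The window of the TLR9 region lay in an intron of WDR82 and held an IRF match. PU.1 matches stood in the window inside an ALDH3B1 intron and in the lower end window of the region over CHKA. The latter window faced UNC93B1 and lay in no protein-coding gene. A PU.1 match was found in 1.70% of all end windows. No octamer or AP-1 match was found in the 12 windows, which says only that these letters were absent from them. The motif counts are descriptions of 201 bp of sequence and do not show binding.

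CD180 (ENSG00000134061.5, chromosome 5, 67179613 to 67196799, minus strand) had 1 super-enhancer, at 67200649 to 67222076. It began 3.85 kb upstream of the gene start and lay wholly outside protein-coding genes. Its signal of 13932 was rank 1977 of 2615, 1.31 times the ROSE cutoff of 10617 and the lowest of the 6 regions. The region was short, at 21.4 kb with 7 constituent peaks, so its signal per bp of 0.650 was rank 408 and above the table median of 0.343. At this length the cutoff corresponds to 0.496 per bp, and 46.0% of the 161 regions within 20% of its length had a lower signal.

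The CD180 region stood alone. The nearest other super-enhancer was 2128 kb away, against a median of 61.7 kb over the table, and 94 regions (3.59%) were more isolated. CD180 had the only protein-coding transcription start site (TSS) within 250 kb of it, while the median region had 6. The next start site belonged to MAST4, at 604 kb.

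LY86 (ENSG00000112799.9, chromosome 6, 6588108 to 6654983, plus strand) encodes the protein that CD180 needs to reach the surface. Its super-enhancer, at 6595601 to 6668934, covered 88.8% of the gene body, from 7.49 kb inside the gene start to 14.0 kb beyond the gene end. Intronic bases made up 80.0% of the region, and exonic bases 0.967%. The signal of 16185 was rank 1672, and it was spread over 73.3 kb and 20 constituents, so the signal per bp of 0.221 was rank 2139 and the lowest of the 6 regions. LY86 too had the only protein-coding TSS within 250 kb of its region, the next being F13A1 at 275 kb. Of all regions, 8.83% had at most 1 such TSS. The CD180 and LY86 regions therefore differed in form, the first compact and intergenic and the second long and intragenic, and both had no second protein-coding start site within 250 kb.

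**Figure D1:**
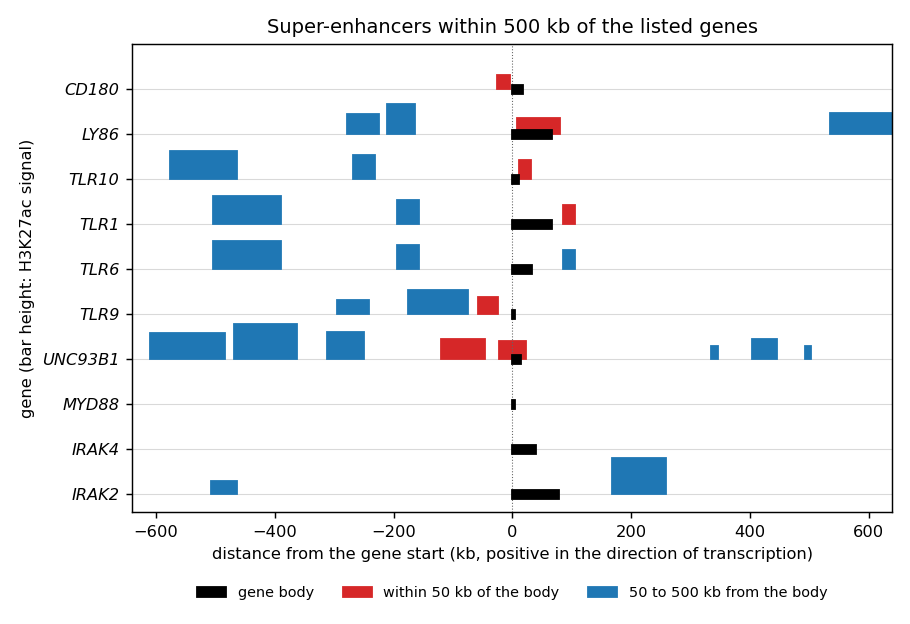
Super-enhancers within 500 kb of each listed gene, drawn by distance from the gene start in kb (positive in the direction of transcription), with bar height proportional to H3K27ac signal on 1 scale for all genes. Red bars lie within 50 kb of the gene body and blue bars farther away; the CD180 region has no neighbour, UNC93B1 has 8 regions, and MYD88 and IRAK4 have none.

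TLR10, TLR1 and TLR6 lie in a row on chromosome 4, and a single super-enhancer stood at the TLR10 end of the row, at 38751734 to 38772079. Its upper edge was 0.159 kb from the 3′ end of TLR10 (ENSG00000174123.11, 38772238 to 38782990, minus strand) and 18.6 kb from TLR1 (ENSG00000174125.8, 38790677 to 38856817). TLR6 (ENSG00000174130.13, 38822897 to 38856817) was 50.8 kb away and so fell just outside the rule. The farthest assigned region on the other side of that limit was 46.4 kb from its gene. The listed distances rest on gene records: the TLR1 record reaches the TLR6 start through 1 of its 10 transcripts. From the gene start, the region was 84.7 kb from TLR1, but from the nearest TLR1 transcript start it was 22.6 kb. For TLR10 these distances were 10.9 and 4.12 kb.

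The TLR10 cluster region had a signal of 19110 (rank 1357) in 20.3 kb and 5 constituents. Its signal per bp of 0.939 was rank 166 and the highest of the 6 regions. Among the 141 regions within 20% of its length, 74.5% had a lower signal, the highest such share of the 6 regions. The share was 63.7% for the TLR9 region, 46.0% for CD180 and 32.9% for LY86. For UNC93B1 it was 56.4% for the region over the gene and 48.7% for that over CHKA. All bases of the TLR10 cluster region were outside protein-coding genes. The 3 nearest protein-coding start sites were those of TLR10, TLR1 and TLR6, ahead of KLF3 at 87.5 kb, so the order of distance put all 3 receptors first. The next super-enhancer was 242 kb away on the far side of the cluster (rank 986, signal 24086).

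**Figure D2:**
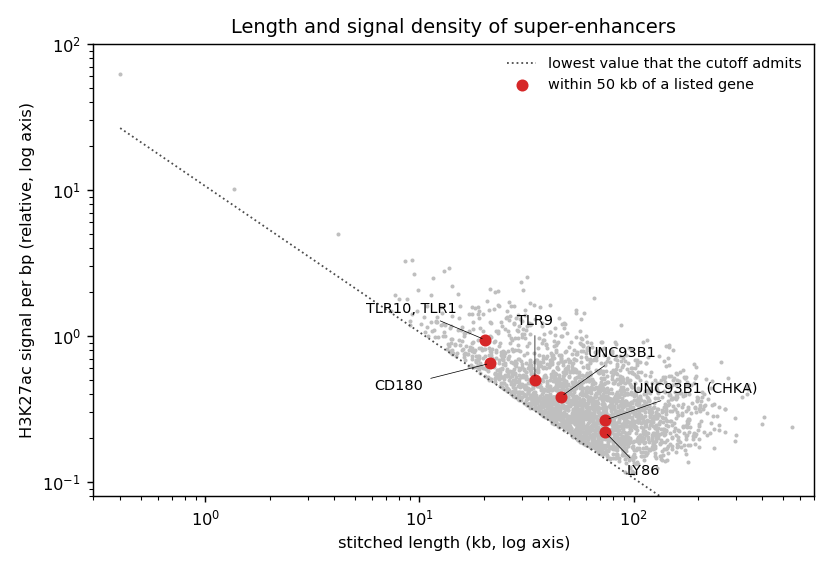
Stitched length in kb and H3K27ac signal per bp of all 2615 super-enhancers (grey points, log axes), with the 6 regions of the listed genes in red and the lowest density the cutoff admits as a dotted line. The CD180 and TLR10 cluster regions are the 2 shortest of the 6 and the densest, and the LY86 region is the least dense.

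TLR9 (ENSG00000239732.4, chromosome 3, 52221080 to 52225645, minus strand) had 1 super-enhancer 23.5 kb upstream, at 52249098 to 52283717. The signal of 17417 was rank 1545, over 34.6 kb and 9 constituents, with 0.503 per bp (rank 679). The region overlapped PPM1M and WDR82 and the microRNA gene MIRLET7G, with 69.0% of its bases intronic and 19.9% exonic. The surroundings were gene rich. There were 16 protein-coding start sites within 250 kb, and TLR9 was number 6 in order of distance. The nearest 4 were TWF2, PPM1M, GLYCTK and WDR82 at 2.31 to 4.30 kb. A second region lay 73.8 kb from TLR9 (rank 1012, signal 23741), outside the rule.

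UNC93B1 (ENSG00000110057.9, chromosome 11, 67991100 to 68004982, minus strand) was the only listed gene with 2 super-enhancers and the only one with its start site inside a region. The region at 67981216 to 68026997 (rank 1530, signal 17566, 45.8 kb, 12 constituents, 0.384 per bp) covered the whole gene and contained the start sites of UNC93B1 and ALDH3B1. At 56.4% its GC content was the highest of the 6 regions and above the 95th percentile of the table (56.0%), while the others ranged from 43.9% to 45.3% against a median of 45.7%. The second region, at 68051358 to 68125321 (rank 1316, signal 19652, 74.0 kb, 23 constituents, 0.266 per bp), was 46.4 kb upstream. It overlapped CHKA, the choline kinase gene, whose start site it contained, and UNC93B1 was the fifth nearest start site. The 2 regions were 24.4 kb apart, and 8 super-enhancers with a summed signal of 170390 lay within 500 kb of UNC93B1. Over all protein-coding genes the median was 1 region and a summed signal of 29523.

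The promoters were examined where the RefSeq table (GRCh38.p14) held them, for 7 of the 10 genes; TLR1, TLR10 and UNC93B1 were not among them. The 250 bases before the start are shown, on the strand of the gene, for the genes with a super-enhancer, with motif matches in capitals as above. The LY86 start of RefSeq lies inside the longer LY86 record of GENCODE, so its promoter falls in an intron of that record. The TLR9 promoter lies within another GENCODE gene record, ENSG00000173366, outside its exons.

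CD180 promoter, chr5:67196800-67197049, minus strand: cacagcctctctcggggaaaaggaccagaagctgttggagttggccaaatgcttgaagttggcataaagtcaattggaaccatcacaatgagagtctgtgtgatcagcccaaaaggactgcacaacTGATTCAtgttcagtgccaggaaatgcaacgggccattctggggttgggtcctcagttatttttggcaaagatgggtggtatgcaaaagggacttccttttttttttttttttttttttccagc
LY86 promoter, chr6:6588470-6588719, plus strand: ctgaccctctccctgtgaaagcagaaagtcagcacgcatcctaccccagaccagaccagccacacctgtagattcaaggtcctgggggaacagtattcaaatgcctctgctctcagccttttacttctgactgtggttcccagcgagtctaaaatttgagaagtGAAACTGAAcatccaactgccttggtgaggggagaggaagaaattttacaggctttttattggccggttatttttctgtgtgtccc
TLR9 promoter, chr3:52225646-52225895, minus strand: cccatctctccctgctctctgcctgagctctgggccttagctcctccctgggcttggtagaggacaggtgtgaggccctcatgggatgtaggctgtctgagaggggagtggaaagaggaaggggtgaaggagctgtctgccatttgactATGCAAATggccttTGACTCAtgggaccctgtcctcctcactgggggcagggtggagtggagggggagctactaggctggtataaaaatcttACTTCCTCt

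The TLR9 promoter held an octamer, an AP-1 and a PU.1 match, the CD180 promoter an AP-1 match and the LY86 promoter an IRF match. In all 35116 promoters of the table, the same 250 bases held an octamer match in 1.63%, an AP-1 match in 6.57%, a PU.1 match in 2.17% and an IRF match in 6.88%. The MYD88 promoter held an IRF match, and the promoters of TLR6, IRAK4 and IRAK2 held no match. No super-enhancer reached the promoters shown, and whether a factor bound them was not measured.

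Of the listed genes, the adaptor MYD88 and the kinases IRAK4 and IRAK2 had no super-enhancer within 50 kb, a state shared with most protein-coding genes, of which 30.7% had one. MYD88 (ENSG00000172936.18, chromosome 3, 38138552 to 38143024, plus strand), the shared adaptor, was 971 kb from the nearest region, at 39114078 to 39190364 over TTC21A, CSRNP1 and XIRP1 (rank 458, signal 36953). It lay in a stretch of 2050 kb without a super-enhancer, which held 19 protein-coding genes. Only 19.8% of protein-coding genes were farther from a region. IRAK4 (ENSG00000198001.16, chromosome 12, 43758944 to 43798307), the first kinase after MYD88, was 2392 kb from the nearest region, over SLC38A1 (rank 314, signal 43594). Its stretch of 13578 kb includes the centromere, and 20 of the 2592 intervals between neighbouring regions were as long. IRAK2 (ENSG00000134070.5, chromosome 3, 10164919 to 10243745), a partner kinase, was 89.5 kb from a region at 10333201 to 10423712 over ATP2B2 (rank 490, signal 35634), beyond its 3′ end. The regions nearest to these 3 genes thus had more signal than any of the 6 assigned regions, but were 89.5 kb or more away. Regions below the cutoff were not analysed here, so weaker H3K27ac at these genes was not measured.

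**Figure D3:**
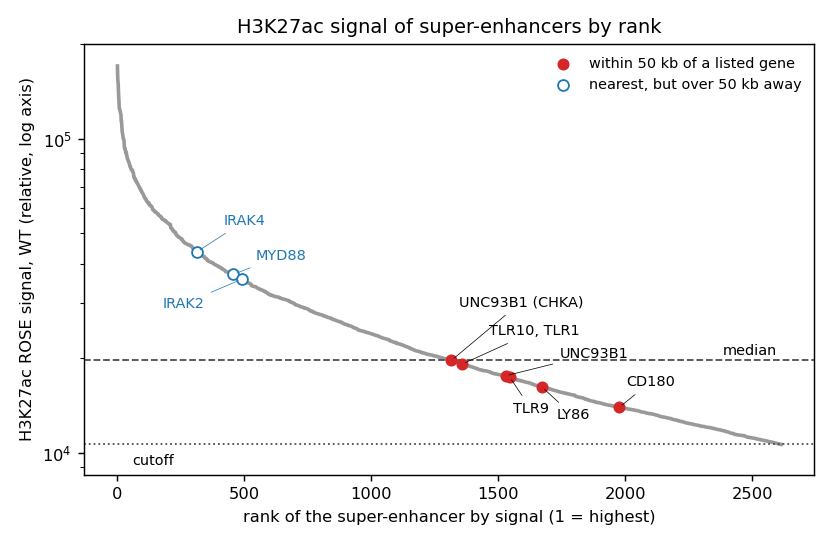
H3K27ac signal (relative, log axis) against rank for the 2615 super-enhancers, with the table median (dashed) and cutoff (dotted). The 6 regions within 50 kb of a listed gene (red) sit between 13932 and 19652, all below the median of 19736; open circles are the regions nearest to MYD88, IRAK4 and IRAK2.

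Of all protein-coding genes, 30.7% had a region within 50 kb, beside 6 of the 10 listed genes. The 6 assigned regions covered a narrow range of signal, from 13932 to 19652, and all were below the table median of 19736. Signal varied 1.41-fold among them, length 3.64-fold and signal per bp 4.26-fold, and 4 of the 6 were above the median in signal per bp. Those 4 were also the regions shorter than the median length of 60.7 kb, and for the CD180 and TLR10 cluster regions the cutoff at their length (0.496 and 0.522 per bp) was already above the median of 0.343. Among the 1307 super-enhancers with the highest signal, none was within 50 kb of a listed gene, whereas 16.8% of protein-coding genes had such a region. The receptors and their partners, CD180, LY86, TLR1, TLR10 and TLR9, together with UNC93B1 were the genes with a region, and the genes without one were TLR6, MYD88, IRAK4 and IRAK2. The median distance from the gene body to the nearest region was 21.0 kb over the 10 genes and 182 kb over all protein-coding genes. With 10 chosen genes, of which 3 share a locus, these shares describe the genes only.

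Another 45 genes of the pathway were listed by role, also with earlier results of these data known. Of them, 20 (44.4%) had a super-enhancer within 50 kb, beside 30.7% of all protein-coding genes. For 12 of the 45 (26.7%) it was among the 1307 with the highest signal, beside 16.8% of all protein-coding genes. By role, the count within 50 kb was 2 of 8 other receptors and co-receptors, 3 of 5 trafficking factors and 4 of 5 adaptors. It was 7 of 14 kinases and ubiquitin factors, 2 of 8 output factors and 2 of 5 inhibitors. The shares of receptors and output factors, 25% each, were below the 30.7% of all genes, and those of the other roles, 40% to 80%, above it. With 5 to 14 genes in a role, these counts describe the genes only.

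Among the receptors, TLR2, the shared partner of TLR1 and TLR6, was 40.3 kb from the region of rank 114 (signal 63976), which lay over TMEM131L. TLR8, which senses single-stranded RNA, was 23.7 kb from a dense region of 12.9 kb (rank 1745, signal 15585, 1.21 per bp), and its neighbour TLR7 was 56.6 kb from the same region, outside the rule. This resembled the TLR10 cluster, where 1 region also stood at the end of a row of related receptors. TLR4, which detects lipopolysaccharide, and its co-receptors LY96 and CD14 had none, with nearest regions at 2657, 3806 and 198 kb.

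Adaptors other than MYD88 mostly had a region. TICAM1, the adaptor of TLR3, lay inside the region of rank 288 (signal 45586) together with its start site. PIK3AP1, which links Toll-like receptors to PI3K, had 3 regions, the strongest inside the gene (rank 583, signal 32494). TIRAP, which bridges receptors to MYD88, was 8.87 kb from a region over DCPS and ST3GAL4 (rank 977, signal 24208). SARM1 was 9.82 kb from the region of rank 2057, and TICAM2 was 2551 kb from its nearest.

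SLC15A4 is an endosomal transporter needed for TLR7 and TLR9 responses. With only the strongest region of each pathway gene counted, the SLC15A4 region was the densest, at 1.63 per bp (rank 425, signal 37947). It was 23.3 kb long and overlapped the gene. HSP90B1, the chaperone of Toll-like receptors, overlapped a region near the cutoff (rank 2243, signal 12426), as did LRRC59 (rank 2428, signal 11486).

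Among kinases and ubiquitin factors, PELI1, a ligase acting on IRAK proteins, overlapped the region of rank 483 (signal 36091, 0.945 per bp). TAB1 overlapped the region of rank 671 (signal 30559), and TAB2 was 17.1 kb from that of rank 367 (signal 40444). UBE2V1, a ubiquitin-conjugating cofactor, had 2 regions, the stronger of rank 363 (signal 40631) also over SNAI1. UBE2N and TRAF3 overlapped weaker regions, of rank 2327 and 2388. IRAK1 overlapped the region of rank 1771 (signal 15414), so of the 4 IRAK genes it alone had a region within 50 kb. TRAF6 and MAP3K7, which act after the IRAK kinases, were 1356 and 252 kb from a region. The output kinases IKBKB (rank 1240, signal 20445) and CHUK (rank 2277, signal 12267) overlapped regions. Of the inhibitors, TNIP1 (rank 170, signal 56522) and SIGIRR (rank 299, signal 44626) overlapped regions, and TNFAIP3 was 61.8 kb from one.

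**Figure D4:**
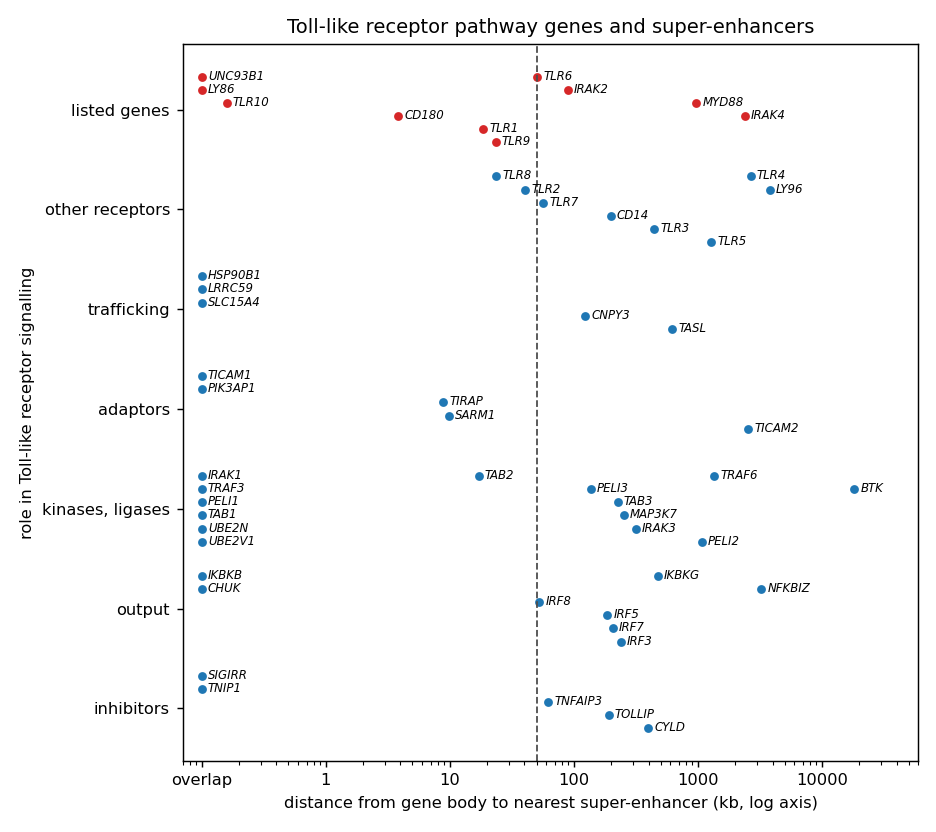
Distance in kb (log axis) from the gene body to the nearest super-enhancer for the 10 listed genes (red) and the 45 other pathway genes (blue) by role, with overlapping genes placed at the left and the 50 kb limit dashed. TLR6 sits just past the limit at 50.8 kb, and IRAK4 and MYD88 are the farthest of the listed genes.

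The identity of the cells was checked on marker genes by the same rule. A region was within 50 kb of 5 of 8 B-cell genes and 7 of 8 germinal center B-cell genes. It was so for 2 of 8 T-cell and 2 of 8 myeloid genes, and for 30.7% of all protein-coding genes.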

How the data were processed

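The 24 OCI-Ly7 samples were profiled by CUT&RUN for 3 histone marks. Per the study's methods, the authors ran nf-core cutandrun on hg38 with IgG controls, scaled libraries by their promoter reads, used SEACR for peaks with MACS2 summits, and applied ROSE to the WT H3K27ac data, excluding peaks within 2500 bp of a TSS. The deposited signal is the ROSE signal of the combined WT libraries, in 1 column; its scaling is not given in the sources used here, so it is a relative signal. The table gives no read counts, so no counting interval was computed; the methods state only an approximate target depth per sample. The other deposited columns hold constituents, their summed length and rank.

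Positions were compared with GENCODE version 44. Distances run between gene body or TSS and region edge. Signal per bp is signal divided by end minus start. Ends of regions were read as windows of 401 bp, since the constituent length was a multiple of 401 in 2609 of 2615 regions. All 10 members are reported, with overlapped and nearest genes, and the pathway genes with the 10 highest signals were to be given with values; further pathway genes were chosen after their values were seen. The members and lists were chosen with earlier results of these data known. The end windows of the CD180 region are not reported here as sequence. No test was made. Distance calculations were tested on simulated data. Alternatives were other windows, TSS anchors, an overlap of 1000 bp and the 1307 regions with the highest signal. Python 3.11.15, numpy 2.4.6, pandas 2.3.3 and matplotlib 3.10.9 were used.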

Additional observations from a re-analysis of the deposited data

How the results depend on the processing

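The number of listed genes with a super-enhancer was between 5 and 8 of 10 with bodies extended by 25 or 100 kb. The same range held with 50 kb around the TSS alone, or with an overlap of at least 1000 bp. The share of all protein-coding genes with a region also changed with the setting. The count was 6 at 25 kb, against 25.05% of all genes, and 5 around the TSS, against 25.9%. With the 1000 bp overlap the count was 6, against 30.5%. It was 2 without extension (LY86 and UNC93B1), where 17.3% of all protein-coding genes had a region, and 0 when only the top 1307 regions by signal were used. At 100 kb, TLR6 and IRAK2 gained a region and the count was 8, against 39.7% of all genes. The pathway count of 20 became 12 with those 1307 regions, also against 16.8% of all genes. The highest signal near a listed gene was 35634 at 100 kb (the region of IRAK2) and 17566 without extension, and by signal per bp the highest value was 0.939. The median distance from TSS to the nearest region was 54.1 kb, 23.0 kb from the nearest transcript start and 199.7 kb to those 1307 regions. These changes follow from the construction of each setting.

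No paired analysis was possible because the table gives 1 pooled WT column, and leaving out a replicate was not run for the same reason. Of the assigned regions, that of CD180, at 1.31 times the cutoff, is nearest to the lower limit of the table. The spread between replicates behind its rank is unknown.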
